A study of Mus musculus with 4 samples.

Results

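The 34 genes described here lie in chromosomal order near the distal end of mouse chromosome 8, from *Acta1* to *Itgb1*, and were 34 of the 53379 genes in the deposited tables. They were chosen by their position and by their expected counts at PD800 against PD100 in these same 4 libraries, so the differences between PD800 and PD100 in their levels are a description, and calls of these genes are only counted beside the share of all genes. RNA came from DKO741, a *Terc*-/- line of mouse embryonic stem cells made from E14 cells by replacing both alleles of the gene for telomerase RNA. The cells were sampled at PD100 (pre-ALT, before telomeres are kept up without telomerase) and at PD800 (post-ALT, when alternative lengthening of telomeres, ALT, sustains growth), with 2 libraries of each. Both groups lack *Terc* and come from 1 line, so no second line shows whether another *Terc*-/- line would give the same values. The time points are population doublings in the study, while the treatment label speaks of passages. The libraries of a group are duplicates, so any p-value measures only the spread between these samples, and an exact permutation test of 2 against 2 could not go below 0.333.

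A mouse chromosome has its centromere at one end and a telomere at each end, and the region next to the telomere is called subtelomeric. Telomerase adds telomeric repeats with an RNA template that *Terc* encodes, and without it telomeres shorten at each division until cells stop dividing or switch to ALT, which copies telomeric DNA by recombination. The genes of the end of chromosome 8 have little in common but their position: they encode parts of the nuclear pore, the Golgi and mitochondria, enzymes of lipid and RNA metabolism, and cell surface receptors.

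Levels are given as CPM, expected counts relative to the library's total after TMM scaling, and as TPM, RSEM's measure that also divides by gene length. The total expected count per library was between 32454121 and 38492149. A floor of 3 counts corresponded to between 0.0743 and 0.0934 CPM, and floors and counting intervals here cover counting error only. The label of embryonic stem cells was checked on 10 markers (*Pou5f1*, *Sox2*, *Nanog*, *Esrrb*, *Zfp42*, *Klf4*, *Tfcp2l1*, *Dppa5a*, *Utf1* and *Sall4*), none of which was at 0. Their summed level was 2104 and 2439 CPM in the PD100 libraries and 3988 and 4079 CPM in the PD800 libraries. Of these 10 markers, 8 rose, and 0 fell in edgeR, at an unadjusted p under 0.05 and in DESeq2 alike.

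The 34 genes spanned 4841 kb of GRCm38 (mm10), from base 123891769 to base 128733200 of chromosome 8. The first gene began 5.39 Mb and the last ended 550 kb before the last annotated base, 129282844, and 28 of the 34 started within the last 5 Mb. Of the 34, 31 had enough counts to enter the fit across all genes, and *Agt*, *Capn9* and *Slc35f3* did not. The summed level of the 34 was 1984 and 2051 CPM at PD100 and 660.2 and 685 CPM at PD800. Both PD800 sums were below both PD100 sums, and the log2 ratio lay between -1.63 and -1.53 in the 4 pairings of a PD800 with a PD100 library. Without *Itgb1* and *Tomm20*, which held the largest values, the sums were 1270 and 1305 CPM at PD100 and 464 and 478 CPM at PD800.

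The median log2 fold change of the 31 tested genes, PD800 over PD100 in edgeR, was -1.44, against 0.01 over all 19148 tested genes, so the median gene kept 36.9% of its PD100 level. All 31 had a negative value, from -4.27 for *Acta1* to -0.16 for *Map10*, although that of *Map10* turned to 0.024 without PD100 replicate 1. Their interquartile range was 0.56 on the log2 scale, against 0.89 over all tested genes. The median standard error was 0.09. Of the 31 genes, 29 were lower at an adjusted p under 0.05 (quasi-likelihood test of edgeR, adjusted by Benjamini-Hochberg), where 23.6% of all tested genes were lower. None was higher, also at an unadjusted p under 0.05 and in DESeq2, where edgeR called 22.1% of all tested genes higher. Under the stricter rule of an adjusted p below 0.01 with a more than 2-fold change, 25 were lower, against 8.81% of all genes. In 30 of the 31, both PD800 libraries were below both PD100 libraries, as in 36.4% of all genes. Since the genes were selected on this contrast, nothing further is read from these counts.

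**Figure D1:**
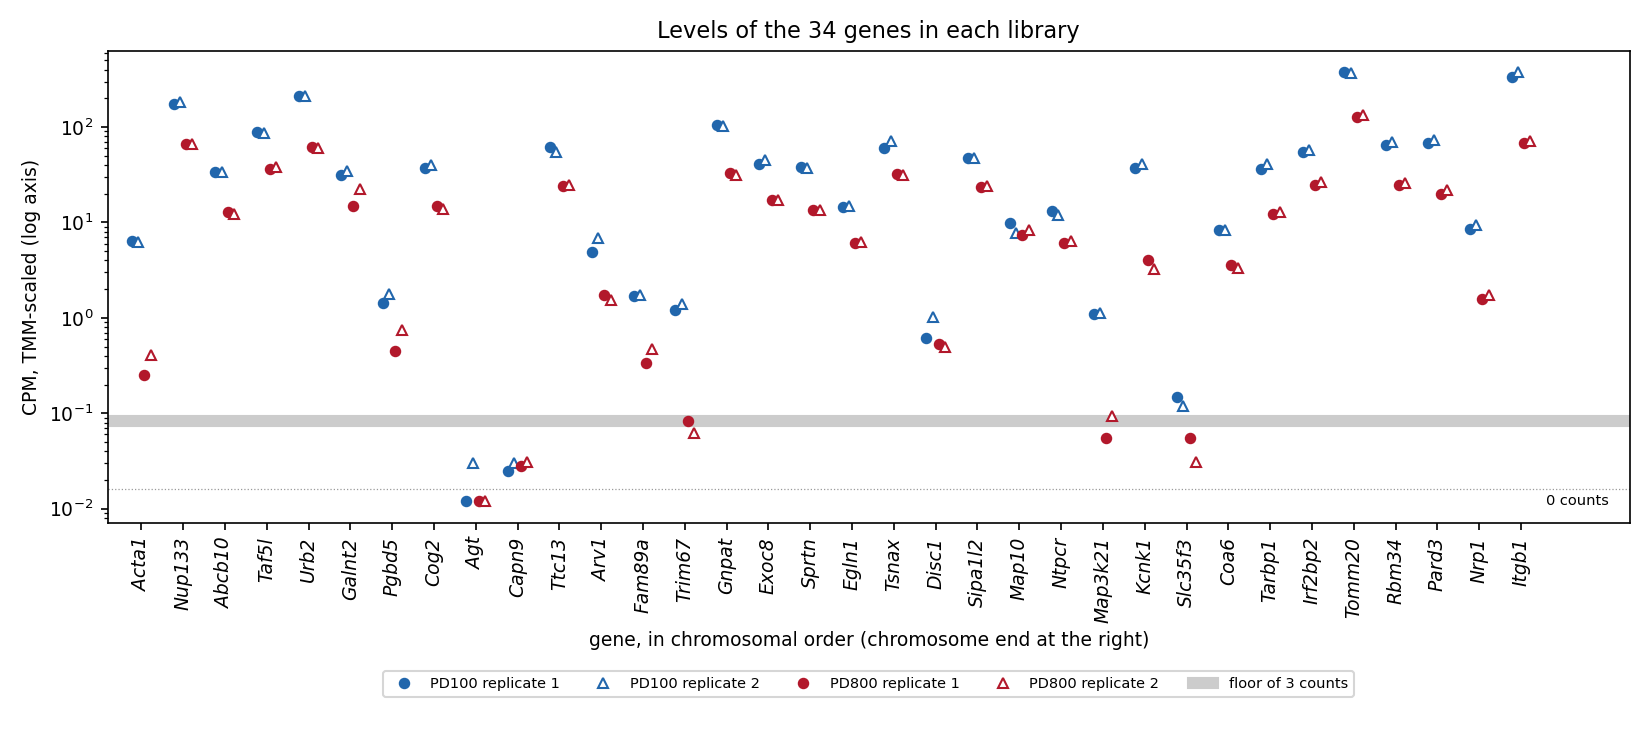
Level of each of the 34 genes in the 4 libraries, as TMM-scaled CPM on a log axis, with the genes in chromosomal order along the x axis. Blue points are PD100 and red points PD800, filled circles replicate 1 and open triangles replicate 2, the grey band is the floor of 3 counts, and libraries with 0 counts are drawn under the dotted line. Red points lie below blue points in 30 of the 31 tested genes, *Map10* overlaps, and *Agt* and *Capn9* sit below the floor in all libraries.

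The replicates of a group lay close together. Over the 21 genes with more than 10 CPM, the log2 ratio of replicate 1 to replicate 2, taken on CPM + 0.1, reached at most 0.24 in size at PD100 and 0.60 at PD800, and the latter was *Galnt2*. Over the tested genes its median size was 0.10 at PD100 and 0.08 at PD800.

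**Figure D2:**
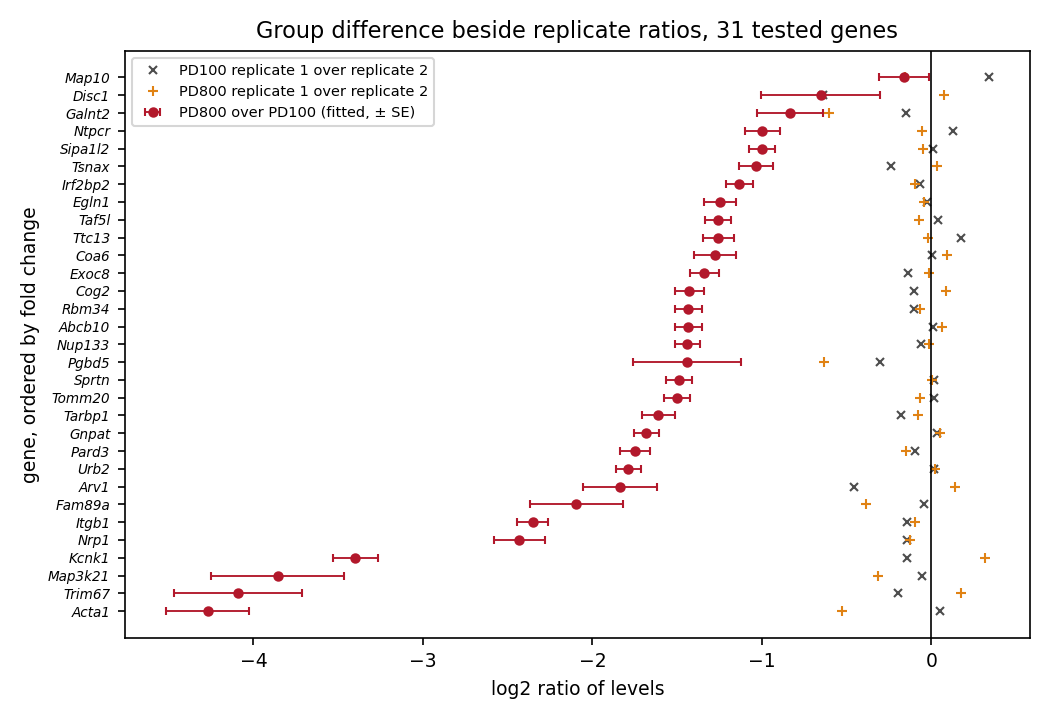
Log2 ratios for the 31 tested genes, ordered along the y axis by fold change. Red points are PD800 over PD100 with the standard error of the fit, and crosses (PD100) and plus signs (PD800) are replicate 1 over replicate 2 on CPM + 0.1. The red points run from -4.27 to -0.16, while the replicate ratios scatter around 0.

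Genes of the nuclear pore and of nucleolar RNA metabolism had values from -1.79 to -1.43. *Nup133* encodes a subunit of the Nup107-160 complex, the scaffold of the nuclear pore, and had 176 and 183 CPM at PD100 and 65.9 and 66.4 CPM at PD800. Its log2 fold change was -1.44 ± 0.07 (SE, n = 2 per group), and its groups were far apart beside their replicates. *Urb2*, a nucleolar protein of ribosome biogenesis, had 213 and 211 CPM at PD100 and 61.7 and 60.9 CPM at PD800, a log2 fold change of -1.79 ± 0.07. *Rbm34*, a nucleolar RNA-binding protein, had 65.4 and 70.3 CPM at PD100 and 24.5 and 25.7 CPM at PD800, or -1.43 ± 0.08. In all 3 genes the PD800 libraries were nearly equal and below both PD100 libraries.

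The mitochondrial and peroxisomal genes held the gene with the highest level. *Tomm20*, an import receptor of the translocase of the outer mitochondrial membrane, had 376 and 372 CPM at PD100 and 129 and 135 CPM at PD800, a log2 fold change of -1.50 ± 0.08. Per length it averaged 248 TPM at PD100, the highest level of the 34, and 54.3 TPM at PD800. *Abcb10*, a transporter of the inner mitochondrial membrane needed for haem synthesis, had 34.1 and 33.9 CPM at PD100 and 12.9 and 12.3 CPM at PD800, or -1.43 ± 0.08. *Coa6*, an assembly factor of cytochrome c oxidase, went from 8.37 and 8.36 CPM at PD100 to 3.56 and 3.33 CPM at PD800, or -1.28 ± 0.13. *Gnpat*, the peroxisomal acyltransferase that starts ether lipid synthesis, had 105 and 102 CPM at PD100 and 32.9 and 31.7 CPM at PD800, or -1.68 ± 0.07. The groups did not overlap in any of these genes, and the replicates of each differed little.

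Among genes of the secretory pathway, *Galnt2* stood apart by its replicates. It encodes a Golgi enzyme that starts mucin-type O-glycosylation and had 31.5 and 34.9 CPM at PD100, but 14.7 and 22.5 CPM at PD800, a log2 fold change of -0.84 ± 0.19. Its groups did not overlap, yet the PD800 libraries differed from each other more than in any other gene with over 10 CPM, and the log2 fold change was -0.55 without PD800 replicate 1 and -1.16 without PD800 replicate 2. *Cog2*, a subunit of the complex that tethers vesicles to the Golgi, had 37.5 and 40.3 CPM at PD100 and 14.9 and 14.0 CPM at PD800, or -1.43 ± 0.09. *Exoc8*, a subunit of the exocyst, which tethers vesicles to the plasma membrane, had 41.3 and 45.6 CPM at PD100 and 17.1 and 17.2 CPM at PD800, or -1.34 ± 0.09. *Arv1*, an endoplasmic reticulum protein of sterol handling, had 4.95 and 6.83 CPM at PD100 and 1.72 and 1.56 CPM at PD800, or -1.84 ± 0.22. *Arv1* was the least abundant of these and had the widest error.

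The regulators of transcription and RNA ranged from -1.61 to -1.03. *Taf5l*, a subunit of the SAGA histone acetyltransferase complex, had 89.9 and 87.4 CPM at PD100 and 36.1 and 38.1 CPM at PD800, or -1.26 ± 0.08. *Tarbp1*, an RNA methyltransferase, had 36.0 and 40.7 CPM at PD100 and 12.2 and 12.9 CPM at PD800, or -1.61 ± 0.10. These PD800 libraries lay well below the PD100 libraries. *Irf2bp2*, a transcriptional corepressor, had 55.4 and 57.9 CPM at PD100 and 24.96 and 26.7 CPM at PD800, or -1.13 ± 0.08. *Tsnax*, which forms a ribonuclease with translin, had 60.0 and 70.7 CPM at PD100 and 32.3 and 31.5 CPM at PD800, or -1.03 ± 0.10, the smallest difference of the 4. *Coa6* and *Tarbp1* overlap tail to tail, and the expected counts of both were whole numbers in every library, so no division of reads between them shows.

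*Sprtn* and *Egln1* are genes of genome maintenance and of oxygen sensing. *Sprtn*, a protease that removes proteins crosslinked to DNA, had 38.1 and 37.7 CPM at PD100 and 13.5 CPM in both PD800 libraries, a log2 fold change of -1.49 ± 0.08. *Egln1* encodes the prolyl hydroxylase PHD2, which marks HIF alpha subunits for degradation, and had 14.6 and 14.8 CPM at PD100 and 6.09 and 6.29 CPM at PD800, or -1.25 ± 0.09. In both genes the libraries of a group were nearly equal.

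Genes of polarity, adhesion and signalling had a median of -2.35, the lowest of the classes with no gene below the filter. *Itgb1*, the common beta chain of most integrin receptors for the extracellular matrix, had 338 and 374 CPM at PD100 and 67.3 and 72.0 CPM at PD800, a log2 fold change of -2.35 ± 0.09. *Nrp1*, a co-receptor for semaphorins and VEGF, had 8.55 and 9.44 CPM at PD100 and 1.59 and 1.74 CPM at PD800, or -2.43 ± 0.15. These genes lie closest to the chromosome end of all the 34. *Pard3*, the scaffold of the PAR polarity complex, had 68.3 and 72.9 CPM at PD100 and 19.9 and 22.1 CPM at PD800, or -1.75 ± 0.09. *Sipa1l2*, which switches off the small GTPase Rap, had 47.6 and 47.4 CPM at PD100 and 23.3 and 24.2 CPM at PD800, or -0.9999 ± 0.07. The kinase *Map3k21* is rare and is given with the genes at low counts.

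Markers of other cell types moved in the same direction as these receptors. Of 10 primitive endoderm markers, the extraembryonic lineage that embryonic stem cell cultures can form, 10 fell, and their summed level was 1796 and 2049 CPM at PD100 and 154 and 162 CPM at PD800, mostly *Col4a1* and *Lama1*. None of the defining markers was at 0 in any library, and *Gata6* had 15.8 and 13.6 CPM at PD100 and 1.17 and 1.15 CPM at PD800. Of 8 tested fibroblast markers, 6 fell, and the summed level of all 10 listed was 49.6 and 71.6 CPM at PD100 and 13.8 and 14.6 CPM at PD800, with *Lum* at 0 in all but 1 library. Fibroblasts serve as feeder cells for such cultures, and the study's methods state that the cells used for nucleic acids were grown without feeders. None of either list rose in edgeR, at an unadjusted p under 0.05 or in DESeq2. Their part in the levels of *Itgb1*, *Nrp1*, *Kcnk1* and the other genes was not tested. In bulk RNA, fewer cells of a type and less RNA per cell cannot be told apart.

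The 8 genes listed as contractile or restricted to muscle, brain or other tissues ranged from -4.27 to -0.65 in the 5 that were tested. *Acta1*, skeletal muscle alpha actin, lies from base 123891769 to base 123894751 on the minus strand and is the first of the 34. It had 6.44 and 6.20 CPM at PD100 and 0.2504 and 0.405 CPM at PD800, a log2 fold change of -4.27 ± 0.24, the lowest of all. Actin genes are near copies of each other, but the expected counts of *Acta1* were whole numbers in every library (260.0 and 207 at PD100, 9 and 13 at PD800), so no division of reads with another gene shows in them. Of 10 muscle markers 4 were tested and 3 fell. The summed level of all 10 was 70.7 and 78.2 CPM at PD100 and 22.8 and 25.8 CPM at PD800. The smooth muscle actin *Acta2* made up most of the sum at PD100, with 49.9 and 50.2 CPM. At PD800 it had 9.18 and 10.3 CPM, below *Des* with 11.8 and 13.6 CPM. The muscle regulators *Myod1*, *Myog* and *Myf5* had at most 0.15 CPM in any library. None of the tested muscle markers rose in edgeR, at an unadjusted p under 0.05 or in DESeq2, and their part in the level of *Acta1* was not tested.

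*Kcnk1*, a potassium channel of the two-pore-domain family, had 37.0 and 41.0 CPM at PD100 and 4.09 and 3.27 CPM at PD800, a log2 fold change of -3.40 ± 0.13. It was the only one of the 34 with over 10 CPM at PD100 and a value below -3. *Pgbd5*, a gene derived from a transposase and expressed mainly in brain, had 1.44 and 1.80 CPM at PD100 and 0.445 and 0.747 CPM at PD800, or -1.44 ± 0.32. *Disc1*, a scaffold protein of centrosomes and neuronal development, had 0.619 and 1.02 CPM at PD100 and 0.529 and 0.498 CPM at PD800, or -0.65 ± 0.35. The PD800 values of *Disc1* were below both PD100 values, but in CPM the gap was smaller than that between the PD100 replicates, and the log2 fold change was -0.98 without PD100 replicate 1 and -0.29 without PD100 replicate 2.

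For the genes at low counts the counts are given summed over the libraries of a group, with an exact 95% interval of the ratio that covers counting error only. *Trim67*, a ubiquitin ligase expressed mainly in brain, had 96 counts at PD100 and 5 at PD800, which was 17.7-fold lower (7.34 to 55.8). *Map3k21*, a mixed lineage kinase, had 82 counts at PD100 and 5 at PD800, which was 15.1-fold lower (6.23 to 47.9). *Slc35f3*, a putative thiamine transporter, had 10 and 3 counts, a ratio of 3.08 (0.792 to 17.4) whose interval includes equality. *Agt*, the precursor of angiotensin, had 1 count at PD100 and 0 at PD800, and the calpain *Capn9* had 2 counts in each group. *Agt* and *Capn9* were below the floor in all libraries, so no difference was detectable at this depth.

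Of the genes with little known role, *Map10* departed most from the rest. *Map10*, a microtubule-associated protein of cytokinesis, had 9.83 and 7.76 CPM at PD100 and 7.46 and 8.31 CPM at PD800, a log2 fold change of -0.16 ± 0.15. It was the one tested gene whose groups overlapped. *Ttc13*, a tetratricopeptide repeat protein, had 62.3 and 55.1 CPM at PD100 and 24.4 and 24.7 CPM at PD800, or -1.26 ± 0.09. *Ntpcr*, a nucleoside triphosphatase, had 13.1 and 11.9 CPM at PD100 and 6.15 and 6.38 CPM at PD800, or -0.9965 ± 0.10. *Fam89a* had 1.68 and 1.74 CPM at PD100 and 0.334 and 0.467 CPM at PD800, or -2.09 ± 0.27. In *Ttc13*, *Ntpcr* and *Fam89a* both PD800 libraries were below both PD100 libraries.

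Over the 31 tested genes, Spearman's rank correlation of the log2 fold change with the distance from the chromosome end was 0.04, and with the mean TPM at PD100 it was 0.05. These are descriptions over neighbouring genes of the same libraries. Of the 7 genes below -2, *Acta1* was the first of the 34, and *Fam89a* and *Trim67*, *Map3k21* and *Kcnk1*, and *Nrp1* and *Itgb1* were neighbours among them. The 3 above -0.9 were *Galnt2*, *Disc1* and *Map10*. By TPM at PD100, 24 of the 31 were in the upper 50 percent of tested genes and 3 (*Tomm20*, *Itgb1* and *Gnpat*) were above the 90th percentile.

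**Figure D3:**
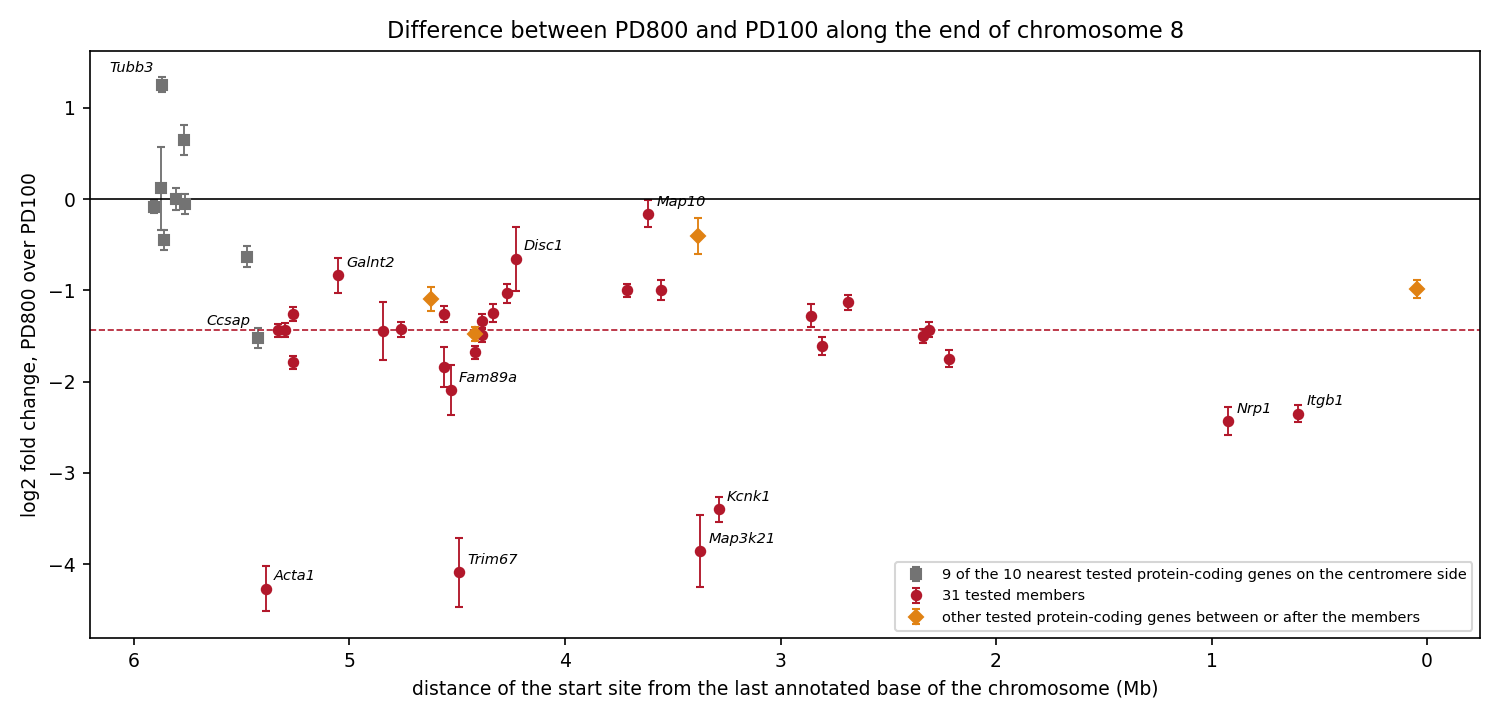
Log2 fold change, PD800 over PD100, with its standard error, against the distance of each gene's start from the last annotated base of chromosome 8 in Mb, with the end at the right. Red circles are the 31 tested genes and the dashed line is their median of -1.44, orange diamonds are other tested protein-coding genes between or after them, and grey squares are 9 of the 10 nearest tested protein-coding genes on the centromere side. The red points lie below 0, and the grey points on both sides of 0.

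The 10 tested protein-coding genes next to *Acta1* on the centromere side had a median log2 fold change of -0.07, and values are given for 9 of them. *Ccsap*, the nearest, had -1.52 ± 0.11, with 10.4 and 10.5 CPM at PD100 and 3.59 and 3.67 CPM at PD800. *Rab4a* had -0.63 ± 0.11. *Gas8* had -0.05 ± 0.11, *Dbndd1* 0.65 ± 0.17, *Afg3l1* 0.00 ± 0.12 and *Def8* -0.45 ± 0.11. *Tubb3*, the neuronal beta tubulin, had 1.25 ± 0.08, *Mc1r* 0.12 ± 0.46 and *Tcf25* -0.08 ± 0.07. In edgeR at an adjusted p under 0.05, 4 of these 10 fell and 2 rose.

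Between *Acta1* and the chromosome end, 50 other annotated genes were in the tables, of which 9 were protein-coding. Of these 9, 5 were tested, with a median of -0.98, and 3 fell, while 0 rose in edgeR, at an unadjusted p under 0.05 and in DESeq2. *2810004N23Rik* had -1.48 ± 0.08, *2310022B05Rik* -1.09 ± 0.13 and *Pcnx2* -0.40 ± 0.20. *2610044O15Rik8* lies beyond *Itgb1*, ends 48.4 kb before the last annotated base, and had -0.98 ± 0.10. *Gm20388*, an annotated read-through gene from base 119910841 to base 124345722, overlaps *Acta1*, *Nup133*, *Abcb10*, *Taf5l*, *Urb2* and *Galnt2*, and had -0.45 ± 0.16. Its expected counts were 1158 and 837 at PD100 and 814 and 540.3 at PD800, fractional in every library, and only *Urb2* and *Galnt2* of these genes lie on its strand. Of the 9 tested genes that were not protein-coding, 8 had negative values, as did 9442 of all 19148 tested genes. The exception was the pseudogene *Gm21399* with 0.54 ± 0.26. Of the 8, only *Gm32856*, with -0.95 ± 0.11, did not overlap a gene described above. *Gm29773*, *Gm45890*, *Gm17827*, *Gm45732*, *Gm16163* and *Gm45709* had fractional expected counts in every library, at most 77.05. Whether division of reads with the genes they overlap moved their values was not tested.

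The rest of chromosome 8 was also lower at PD800, by less. Its 963 tested genes had a median of -0.43, and 453 (47.0%) fell and 75 rose. Over the whole chromosome the median was -0.45, the lowest of the 20 chromosomes, followed by -0.38 for chromosome 19. In windows of 5 Mb set by the last base of each gene, the last window had a median of -1.31 over 36 tested genes, the next -0.53 and the third -0.38. The windows from 15 to 20 Mb and from 20 to 25 Mb had 0.05 and -0.02. A median as low occurred once more, with -1.41 over 13 genes between 120 and 125 Mb from the end. In windows of 2 Mb the last had -1.37 over 6 tested genes, and 4 others, of 3 to 6 tested genes each, had lower medians, from -2.04 to -1.46. Among genes that start in the last 5 Mb of a chromosome, chromosome 8 had a median of -1.38 over 34 tested genes, and a lower one was found in chromosome 17, with -5.53 over 8 genes. Chromosome 3 had -1.01, while chromosomes 11, 6 and 16 had 1.19, 0.90 and 0.72.

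**Figure D4:**
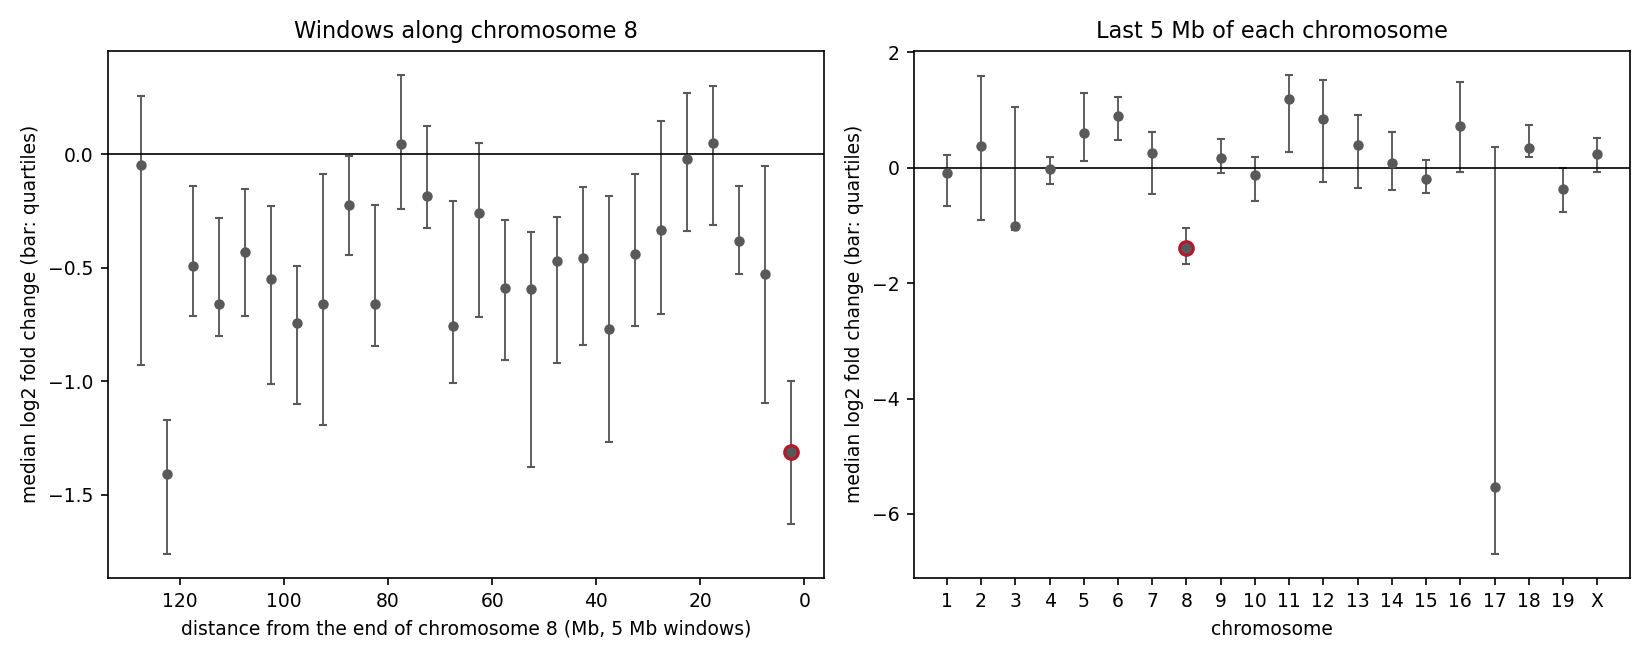
Left, median log2 fold change of tested genes in 5 Mb windows along chromosome 8, against the distance from its end in Mb; right, the same for the last 5 Mb of each chromosome. Bars are quartiles and the end of chromosome 8 is in red, at -1.31 in the left plot and -1.38 in the right plot.

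Pairs of genes that start within 1 kb of each other in opposite directions share a promoter region, and 5 such pairs were found with at least 1 of the 34. In *Taf5l* and *Urb2*, with starts 111 bases apart, the log2 fold changes were -1.26 and -1.79, a difference of 0.53 ± 0.10 (SE, with the 2 genes taken as independent). In *Ttc13* and *Arv1*, 156 bases apart, they were -1.26 and -1.84, a difference of 0.58 ± 0.24. *Exoc8* and *Sprtn*, 181 bases apart, had -1.34 and -1.49, a difference of 0.15 ± 0.12. *2810004N23Rik* and *Gnpat*, whose starts overlap by 87 bases, had -1.48 and -1.68, a difference of 0.20 ± 0.11. In *Nup133* and the antisense gene *Gm45890* they were -1.44 and -1.09, a difference of 0.34 ± 0.30. *Gm45890* overlaps *Nup133* and had fractional expected counts in every library. Both genes of each pair had negative values, and these differences are a description, since the same values chose the genes.

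RefSeq's promoter table for GRCm38.p6 (250 bases before to 50 after a start) held 31 of the 34 genes, and for 2 of them its start lay over 1 kb from that of the annotation used here. The 5 windows below are those of *Acta1*, the gene with the largest difference, and of 4 shared promoters, read on the strand of the gene named. Capitals mark the TATA box (TATAAA) and the CArG box, a binding motif of serum response factor, in *Acta1*, and the ETS core (CGGAAG on either strand) in the others.
*Acta1*, chr8:123894726-123895025, minus strand: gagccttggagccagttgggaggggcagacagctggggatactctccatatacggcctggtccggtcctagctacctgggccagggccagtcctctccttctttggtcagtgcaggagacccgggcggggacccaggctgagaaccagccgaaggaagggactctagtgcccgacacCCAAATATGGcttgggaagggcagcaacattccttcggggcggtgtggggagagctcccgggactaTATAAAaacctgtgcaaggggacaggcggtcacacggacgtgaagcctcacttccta
*Urb2* (with *Taf5l*), chr8:124021247-124021546, plus strand: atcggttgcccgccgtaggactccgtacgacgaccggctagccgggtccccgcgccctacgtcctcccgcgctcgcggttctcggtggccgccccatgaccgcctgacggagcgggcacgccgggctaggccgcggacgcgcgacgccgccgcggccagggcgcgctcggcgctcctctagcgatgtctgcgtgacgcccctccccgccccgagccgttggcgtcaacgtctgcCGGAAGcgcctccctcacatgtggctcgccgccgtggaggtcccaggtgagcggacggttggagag
*Arv1* (with *Ttc13*), chr8:124721916-124722215, plus strand: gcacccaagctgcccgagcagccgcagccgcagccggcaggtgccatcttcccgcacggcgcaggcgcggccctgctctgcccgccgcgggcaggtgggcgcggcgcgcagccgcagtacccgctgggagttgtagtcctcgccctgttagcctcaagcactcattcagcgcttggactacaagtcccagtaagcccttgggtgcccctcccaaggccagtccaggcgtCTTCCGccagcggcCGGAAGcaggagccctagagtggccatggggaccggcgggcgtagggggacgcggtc
*Gnpat* (with *2810004N23Rik*), chr8:124862783-124863082, plus strand: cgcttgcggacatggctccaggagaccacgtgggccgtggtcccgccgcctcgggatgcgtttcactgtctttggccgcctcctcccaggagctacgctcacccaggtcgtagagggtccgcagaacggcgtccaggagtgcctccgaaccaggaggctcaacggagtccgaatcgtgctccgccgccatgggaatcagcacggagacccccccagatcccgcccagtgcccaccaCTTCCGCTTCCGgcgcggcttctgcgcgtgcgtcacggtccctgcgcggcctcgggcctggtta
*Sprtn* (with *Exoc8*), chr8:124897644-124897943, plus strand: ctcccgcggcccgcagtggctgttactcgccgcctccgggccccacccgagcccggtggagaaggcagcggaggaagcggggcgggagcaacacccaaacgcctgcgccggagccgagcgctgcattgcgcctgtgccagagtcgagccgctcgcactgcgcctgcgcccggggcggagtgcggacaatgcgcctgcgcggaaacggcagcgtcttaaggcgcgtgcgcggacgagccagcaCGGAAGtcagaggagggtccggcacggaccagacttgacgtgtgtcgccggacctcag
In *Acta1* the TATA box began 7 bases and the CArG box 73 bases before RefSeq's start, and the start in the annotation used here lies 24 bases downstream of RefSeq's. Each of the other 4 windows held 1 or 2 ETS cores within 21 bases before the start, and none held a TATA box or a CCAAT box.

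Over the 31 promoter windows, searched on both strands, the ETS core occurred in 11 (35.5%), against 17.2% of the 27018 windows of RefSeq genes, 1 per gene. The windows of *Taf5l* and *Urb2*, *Ttc13* and *Arv1*, and *Exoc8* and *Sprtn* overlap, so the 11 stand for 8 separate regions, and the other motifs in these pairs are counted once for each gene too. The GC box (GGGCGG) occurred in 23 (74.2%), against 35.9% of all. The TATA box occurred in 3 (9.68%), in *Acta1*, *Agt* and *Map10*, against 14.2%, and CCAAT in 3 (9.68%), against 37.9%. The core of the hypoxia response element (ACGTG, which the E-box CACGTG also contains) occurred in 11 (35.5%), *Egln1* among them, against 19.7%. The NRF1 core (GCATGCGC) occurred in 2, *Abcb10* and *Ntpcr*, against 2.81%, the cAMP response element (TGACGTCA) in *Nup133* alone, against 1.88%, and the CArG box in *Acta1* alone, against 1.57%. The median GC content of the 31 windows was 67.3%, against 52.7% over all windows, and motifs rich in G and C differ with it. A match describes these letters only.

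The mean transcript length that RSEM reported, weighted by the abundance of each transcript, gave another readout of the same genes. It changed by over 10%, with no overlap between the groups, in 5 of the 31 tested genes (16.1%), against 8.80% of all tested genes. Without the condition on overlap it did so in the same 5 and in 13.9% of all tested genes. *Disc1* had few counts for such an estimate, 25 and 34 at PD100 and 19 and 16 at PD800. Its mean length was 1384 and 1272 bases at PD100 and 1985 and 1742 bases at PD800, 40.4% longer. In *Tomm20* it was 1462 and 1117 bases at PD100 and 1785 and 1594 bases at PD800, a length 31% greater. *Tomm20* contains the snoRNA gene *Gm26397*, which had expected counts of 441 and 269 at PD100 and 147 and 137 at PD800. In *Rbm34* the length was 2484 and 2102 bases at PD100 and 2919 and 2736 bases at PD800, 23.3% longer. In *Tomm20* and *Rbm34* the PD100 libraries differed from each other by more than the gap between the groups. In *Galnt2* the length was 3666 and 4113 bases at PD100 and 3025 and 3209 bases at PD800, a change of -19.9%. *Galnt2* overlaps *Gm20388* on the same strand, and whether the division of reads between them moved this length was not tested. In *Pgbd5* the length changed by 12.2%, on 58 and 60 counts at PD100 and 16 and 24 at PD800.

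Several of the 34 encode subunits or partners of complexes whose other parts are encoded elsewhere, and 117 such partner genes in 12 lists were tested. These were not used to choose the 34, and 3 of them (*Pard6a*, *Cog4* and *Cog8*) lie on chromosome 8 outside its end. Their median log2 fold change was 0.05, and 38 fell and 29 rose (edgeR, adjusted p under 0.05), against 23.6% and 22.1% of all tested genes.

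For *Tomm20*, none of the 6 other subunits of the import complex passed the test, 0 did so at an unadjusted p under 0.05 and 0 in DESeq2, and their values lay between -0.22 (*Tomm70a*) and 0.24 (*Tomm6*). For *Cog2*, 0 of 7 partners fell and 4 rose, from -0.22 (*Cog3*) to 0.98 (*Cog6*), where 1 was lower at an unadjusted p under 0.05 and 0 in DESeq2. For *Exoc8*, 2 of 8 fell and 5 rose, from -0.33 (*Exoc5*) to 0.43 (*Exoc2*). For *Nup133*, 3 of 9 fell and 2 rose, from -0.75 (*Nup43*) to 1.27 (*Nup107*). For *Taf5l*, 2 of 17 SAGA subunits fell and 4 rose, from -0.38 (*Atxn7*) to 0.76 (*Sgf29*), where DESeq2 called 0 lower and 4 higher. All of these partners had a smaller negative value, if any, than the gene at the end of chromosome 8, but these differences between genes were not tested.

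For *Gnpat*, 1 of 7 tested genes of ether lipid synthesis fell and 4 rose, from -0.63 (*Pex7*) to 1.40 (*Chpt1*). For *Coa6*, 4 of 11 other assembly factors of cytochrome c oxidase fell and 1 rose, from -0.62 (*Cox11*) to 0.45 (*Coa7*). For *Tsnax*, and for *Tarbp1*, which shares a name but not its known role with *Tarbp2*, 2 of 8 genes of the translin and RISC list fell and 2 rose, from -1.53 (*Ago4*) to 0.92 (*Dicer1*), where DESeq2 called 0 lower and 1 higher. For *Egln1*, 4 of 8 genes of the HIF hydroxylation list fell and 1 rose, and the highest was *Vhl* at 0.46. The lowest of the list, *P4ha1* at -2.44, is a collagen prolyl hydroxylase and not a gene of HIF hydroxylation. The next lowest was *Epas1* at -1.49.

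For *Itgb1*, 7 of 12 integrin alpha chains fell and 2 rose. The lowest was *Itga8* at -3.07, with 8.94 and 7.28 CPM at PD100 and 1.17 and 0.747 CPM at PD800, and the highest *Itga9* at 2.32, with 3.69 and 4.19 CPM at PD100 and 19.5 and 19.7 CPM at PD800. For *Nrp1*, 11 of 15 semaphorins, plexins and VEGF receptors and ligands fell and 1 rose. The lowest was *Flt1*, a VEGF receptor, at -4.57, with 21.5 and 21.1 CPM at PD100 and 0.946 and 0.840 CPM at PD800, and the one that rose was *Plxna4* at 3.56. For *Pard3*, 2 of 9 genes of the PAR complex fell and 3 rose, from -0.57 (*Pard6b*) to 0.75 (*Llgl2*). The primitive endoderm and fibroblast markers given above fell between the same libraries, and their part in these counts was not tested.

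**Figure D5:**
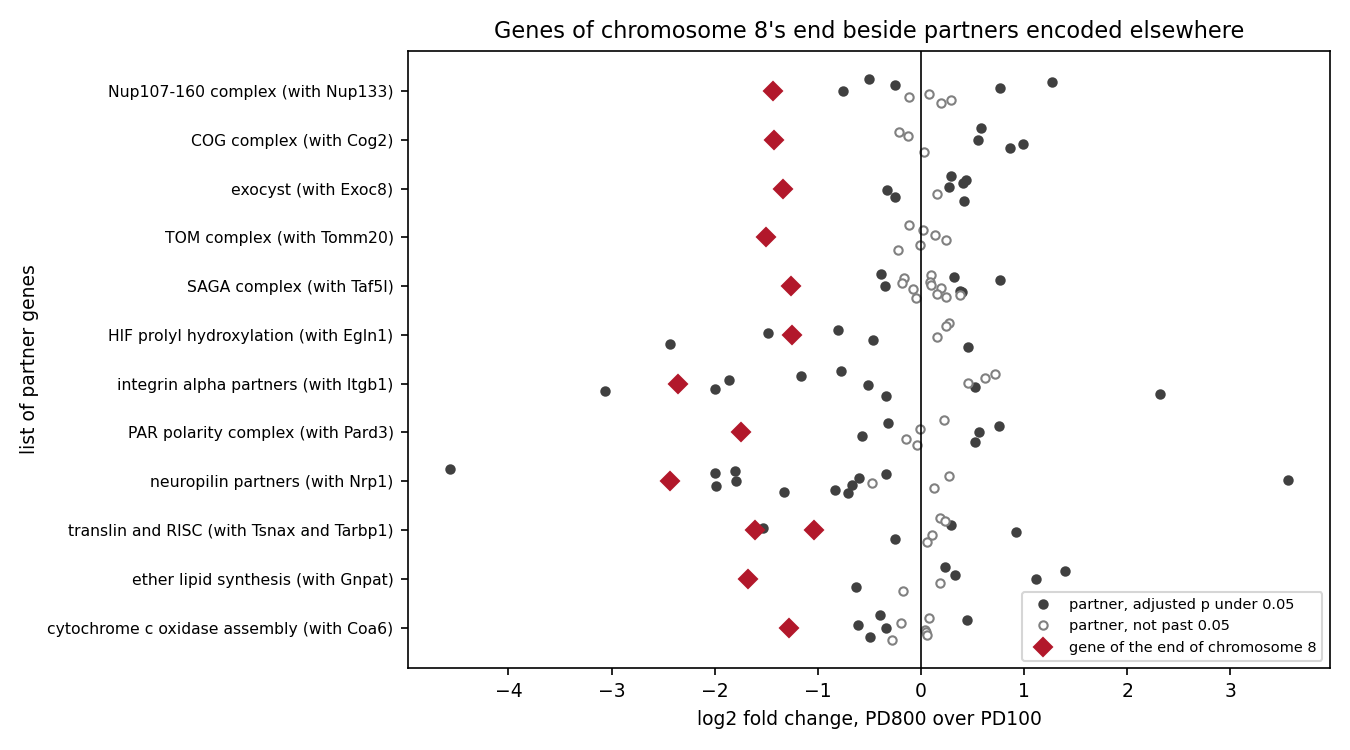
Log2 fold change, PD800 over PD100, of the 117 tested partner genes in 12 lists (circles, filled where the adjusted p was under 0.05) and of the gene at the end of chromosome 8 that each list belongs to (red diamonds). The diamonds lie between -2.43 and -1.03, while partners spread from -4.57 to 3.56 around a median of 0.05.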

How the data were processed

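RNA from *Terc*-/- DKO741 embryonic stem cells was sequenced at PD100 and PD800, 2 libraries each, grouped by their labels. The authors aligned reads to mm10 with STAR 2.5.3a and deposited RSEM 1.3.0's expected count, TPM and mean transcript length per gene. The submitters' processing notes also name DESeq2 1.18.1. The deposited expected count carries each library's depth, with multiply aligned reads split between genes, while the deposited TPM corrects for gene length and sums to a fixed total. The annotation release and the use of strand are not given in the sources used here. Positions came from GENCODE M21 (GRCm38), in which 53274 of 53379 identifiers were found without their version.

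Expected counts were rounded and fitted across all genes in R 4.3.3 with edgeR 4.0.16: filterByExpr (minimum count 10), TMM, and quasi-likelihood F tests adjusted by Benjamini-Hochberg. The standard error is the size of the log2 fold change divided by the square root of F. The fit was tested on simulated data, in which 200 genes were changed, as many up as down, with 1 dispersion for all genes. Far more genes were called in the real data, so the simulation does not show how the fit behaves there. Alternatives were DESeq2 1.42.0 and its size factors, a block for the replicate number, no filter, a minimum of 10 counts in each library, limma 3.58.1 on log2(TPM + 1) and log2(TPM + 0.1), and each library left out. Limma was used on the TPM scale, so its fold changes understate those of low genes.

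The 34 genes were matched by the symbol in the identifier. Also named are tested protein-coding genes of the region, the 10 nearest on the centromere side (1 of which is counted but not reported here), the lowest and highest of each partner list, and markers. The genes and lists were chosen with earlier results of these data known. Of the partners listed, *Ept1* was not matched. Single markers, the chromosome ends and windows besides that of chromosome 8, and genes singled out for low counts, length or promoter were picked after their values were seen.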

Additional observations from a re-analysis of the deposited data

How the results depend on the processing

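Every one of the 31 tested genes had a negative log2 fold change under each alternative that fitted it, apart from *Map10*, which turned to 0.024 without PD100 replicate 1 and was -0.34 without PD100 replicate 2. With each library left out in turn, a group of 1 library was assumed to vary like the other. The number of the 34 genes called lower was 29 and ranged from 26 to 30 over all alternatives, 28 to 30 of them with a library left out, and their median of -1.44 ranged from -1.48 to -1.43 there. Without PD800 replicate 1, *Pgbd5* at -1.10 no longer passed, and *Disc1* and *Map10* passed in 3 and 1 of the alternatives. On limma's log2(TPM + 1) and log2(TPM + 0.1), the median of the 31 was -1.30 and -1.62, while that of all genes moved to -0.12 and -0.21, and the median of the other protein-coding genes of the region was -1.28 on the latter. That median ranged from -0.99 to -0.91 with a library left out. Over all genes, 4515 were lower and 4224 higher (51.7% lower), but 1771 and 1775 were higher on the limma scales, where 74.2% and 74.5% of the calls were lower. With a library left out, between 2799 and 5340 genes were lower and between 2330 and 5322 higher, and without PD800 replicate 1 these were 2799 and 2330, without PD800 replicate 2 they were 2867 and 2573. The 67 partner genes called became 32 without either PD800 library and 79 without either PD100 library. The last window along chromosome 8, set by the last base of each gene, had a median of -1.37 over 6 tested genes at 2 Mb. Among genes that start in the last 2 Mb the median was -0.98 over 5 tested genes, without *Pard3* (-1.75), which ends but does not start there. Among those that start in the last 10 Mb it was -0.72 over 131 tested genes. The cause of the other shifts was not tested.

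The labels give no shared batch, and with 2 pairs the replicate numbers were not taken to pair the libraries. Deviations of same-numbered libraries from their group means had a correlation of 0.42 across 10705 genes, which are not independent. With the replicate block, 5262 genes were lower and 5214 higher, 29 of the 34 genes were lower with a median of -1.44, the median of the other protein-coding genes was -0.98, and 78 partner genes were called. Depth limits *Agt*, *Capn9* and *Slc35f3*, and *Trim67* and *Map3k21* at PD800.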
